A study of Mus musculus with 46 samples.

Results

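The genes described here are 10 regulators of entry into and exit from the cell cycle, with the insulin-like growth factor (IGF) axis beside them, in cultured mouse macrophages. They are the D-type cyclin genes Ccnd1, Ccnd2 and Ccnd3, the cyclin-dependent kinase (CDK) inhibitor genes Cdkn1a, Cdkn1b and Cdkn2c, the IGF genes Igf1, Igf1r and Igfbp4, and Myc. They were chosen by name, with earlier results of these data known, as 10 of the 24671 genes in the table of estimated counts. All 10 were among the 13838 genes with enough counts to be tested. The study treated bone marrow-derived macrophages (BMDM), which are macrophages grown in culture from marrow, with ligands of the liver X receptor (LXR) and of the estrogen receptor, and sequenced polyadenylated RNA from 46 libraries. Each of the 9 groups is named here by its treatment. Vehicle had 6 libraries and every other group had 5. The single treatments were 27HC, the oxysterol 27-hydroxycholesterol, which binds LXR and the estrogen receptor; GW3965, a synthetic agonist of LXR; GSK2033, which antagonises LXR; E2, the usual abbreviation of estradiol; and ICI, which the labels spell out no further and which commonly stands for an antagonist of the estrogen receptor. The combined treatments were GSK2033 plus 27HC, ICI plus 27HC, and GW3965 plus a second compound, for which the labels disagree between 27HC and ICI and which is therefore left unnamed. The labels used here give no dose, time, strain, sex or age, and do not say whether replicate libraries represent different mice or different cultures, so p-values below measure only the spread between libraries, which may be technical.

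As background, D-type cyclins bind CDK4 or CDK6, and the complexes phosphorylate the retinoblastoma protein, which frees E2F transcription factors to start S phase. The proteins of Cdkn1a (p21) and Cdkn1b (p27) bind cyclin-CDK complexes, and the protein of Cdkn2c (p18) belongs to the INK4 group, which binds CDK4 and CDK6. IGF1 acts through the receptor tyrosine kinase IGF1R and through the PI3-kinase and AKT pathway, IGFBP4 binds IGF1 outside the cell, and MYC is a transcription factor of growth and ribosome production. Macrophages are themselves a source of IGF1.

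In the GRCm38 build, with gene models of GENCODE M21, the cyclin genes are Ccnd1 (ENSMUSG00000070348, chr7:144929931-144939925, minus strand), Ccnd2 (ENSMUSG00000000184, chr6:127125162-127152193, minus strand) and Ccnd3 (ENSMUSG00000034165, chr17:47505051-47599691, plus strand). The inhibitor genes are Cdkn1a (ENSMUSG00000023067, chr17:29090976-29100727, plus strand), Cdkn1b (ENSMUSG00000003031, chr6:134920401-134925513, plus strand) and Cdkn2c (ENSMUSG00000028551, chr4:109660876-109667189, minus strand). The IGF genes are Igf1 (ENSMUSG00000020053, chr10:87858265-87937042, plus strand), Igf1r (ENSMUSG00000005533, chr7:67952827-68233668, plus strand) and Igfbp4 (ENSMUSG00000017493, chr11:99041244-99054392, plus strand), and the last of the 10 is Myc (ENSMUSG00000022346, chr15:61985391-61990374, plus strand). All 10 are protein-coding. Ccnd1, Ccnd2, Ccnd3, Cdkn1a and Igf1 each overlap a gene on the other strand (LTO1, 9330179D12Rik and Gm43126, Bysl, AC167363.2 and Igf1os in that order). The kit keeps the strand, but whether the counting used it is not given in the sources used here. Cdkn2c had the fewest counts, 117 to 231 per library, and Igf1 the most, 8972 to 30671.

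Promoter windows of RefSeq (GRCm38.p6, 250 bases before to 50 after an annotated start) were at hand for 7 of the 10 genes, with 10 windows in all; those of Ccnd1, Ccnd2 and Myc are named only. The 4 windows printed here belong to genes on which the results below turn, and capitals mark matches to the motifs searched on both strands: the nuclear receptor hexamer AGGTCA, the LXR repeat of this hexamer with 4 bases between, the estrogen response element of GGTCA and TGACC with 3 bases between, the E-box CACGTG, the FOXO core TGTTTAC, the GC box GGGCGG, the TATA box TATAAA, the AP-1 site TGANTCA, the cyclic AMP response element TGACGTCA, the E2F site TTTCGCGC and the p53 decamer. The AP-1 pattern searched allows any base at its centre, where the consensus has C or G. The p53 decamer was added after the first Cdkn1a window had been read.
Igf1, chr10:87860861-87861160, plus strand: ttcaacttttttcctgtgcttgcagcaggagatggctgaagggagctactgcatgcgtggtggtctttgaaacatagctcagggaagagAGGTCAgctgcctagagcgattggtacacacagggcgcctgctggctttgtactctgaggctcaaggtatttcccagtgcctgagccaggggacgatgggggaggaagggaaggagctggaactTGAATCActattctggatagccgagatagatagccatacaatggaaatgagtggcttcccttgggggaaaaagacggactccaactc
Igfbp4, chr11:99040994-99041293, plus strand: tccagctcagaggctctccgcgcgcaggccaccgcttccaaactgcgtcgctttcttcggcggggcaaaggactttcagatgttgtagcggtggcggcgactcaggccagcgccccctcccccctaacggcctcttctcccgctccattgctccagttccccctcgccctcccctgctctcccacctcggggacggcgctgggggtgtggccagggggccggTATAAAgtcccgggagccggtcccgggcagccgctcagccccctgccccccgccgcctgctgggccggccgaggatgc
Cdkn1a upstream start, chr17:29090729-29091028, plus strand: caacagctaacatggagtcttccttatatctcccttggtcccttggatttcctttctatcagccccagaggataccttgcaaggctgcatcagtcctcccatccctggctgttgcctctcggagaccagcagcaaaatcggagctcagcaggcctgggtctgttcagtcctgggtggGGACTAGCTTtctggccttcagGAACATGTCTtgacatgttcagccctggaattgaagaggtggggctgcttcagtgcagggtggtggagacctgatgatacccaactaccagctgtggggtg
Cdkn1a downstream start, chr17:29093519-29093818, plus strand: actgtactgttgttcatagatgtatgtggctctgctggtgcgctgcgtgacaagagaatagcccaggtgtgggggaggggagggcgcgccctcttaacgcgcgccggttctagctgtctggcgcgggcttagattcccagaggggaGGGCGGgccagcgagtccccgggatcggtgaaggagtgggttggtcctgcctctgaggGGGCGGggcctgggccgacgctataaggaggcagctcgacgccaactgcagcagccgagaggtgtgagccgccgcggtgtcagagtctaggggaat

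In the Igf1 window the capitals are the nuclear receptor hexamer, which begins 161 bases before the start, and a match to the AP-1 pattern. That match begins 37 bases before the start and has A at its centre, so it is not the AP-1 consensus. Among 32851 promoter windows of the same length, 16.3% hold the hexamer and 7.81% a match to the AP-1 pattern with any centre base. In the Igfbp4 window the capitals are a TATA box that begins 28 bases before the start, a motif found in 13.6% of windows. The upstream start of Cdkn1a has p53 decamers that begin 73 and 51 bases before it, and 8.36% of windows hold at least 1. The downstream start of Cdkn1a has GC boxes that begin 104 and 46 bases before it, and 35.7% of windows hold 1. The full LXR repeat is in 0.0152% and the estrogen response element in 0.0700% of windows, and neither was found in the windows of these 7 genes. A match is a description of letters and not a binding site, and the gene counts do not tell which start was used. The Igf1 window begins at 87860861, inside the gene model, which begins at 87858265. Its start is therefore an internal one and not the first of the gene model.

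Levels are given as log2 CPM, the count of a gene relative to the scaled library total, and differences, including each rise or fall by a value, as log2 fold changes with a standard error (SE). Adjusted p comes from the quasi-likelihood test of edgeR after Benjamini-Hochberg correction over the 13838 genes, and a gene is called, or said to rise or fall, where it is below 0.05. The libraries held 19354093 to 30921038 counts. All 14 macrophage markers were detected, and their summed level was 22000 to 24038 CPM in Vehicle, 15798 to 17236 in 27HC and 10015 to 10629 in the group of GW3965 plus a second compound. Stromal markers were present as well: the 15 genes, none at 0 in all libraries, summed to 7160 to 8162 CPM in Vehicle, 7536 to 8219 in E2, 5239 to 5793 in 27HC and 4666 to 5169 in ICI plus 27HC. In Vehicle, Col1a1 averaged 1788 CPM and Acta2 1638, while the fibroblast markers Dcn and Lum were at 0.930 and 0.0595. The lymphocyte sum was nearly all Il7r (50.8 CPM in Vehicle, 118 in 27HC and 181 in ICI plus 27HC), with Cd3e at 0.0523 in Vehicle, and the erythroid and megakaryocyte sum was nearly all Pf4 (310 CPM in Vehicle, 675 in 27HC). The part of these other cells in the results below was not tested, and in bulk RNA fewer cells of a type and less RNA per cell cannot be told apart.

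Of the 10 genes, 27HC raised 4 (Ccnd1, Igf1, Igfbp4 and Myc) and lowered 3 (Ccnd3, Cdkn1a and Cdkn1b) against Vehicle. GW3965 raised Ccnd1, Ccnd2, Igf1 and Myc and lowered Ccnd3, Cdkn1a, Cdkn1b and Igfbp4. E2 raised Ccnd1 and Igfbp4 and lowered none by edgeR. At an unadjusted p below 0.05 there were 3 higher in E2, with Ccnd2 added (0.12, adjusted p = 0.126), and 1 lower, Cdkn1a, which DESeq2 also called (adjusted p = 0.0438). In the 27HC comparison 40.3% of all genes were called (20.3% higher and 20% lower), in that of GW3965 44.2% of all genes were called (23.1% higher and 21.1% lower), and in that of E2 4.7% of all genes were called (2.2% higher and 2.49% lower), so the counts of 7, 8 and 2 of 10 are read against broad responses to 27HC and GW3965 and a narrow one to E2. GSK2033 raised Ccnd1 and Cdkn1a and lowered 4, where 36.3% of all genes were called (18.4% higher and 17.9% lower). ICI raised 3 and lowered 3, where 26.4% of all genes were called (13.9% higher and 12.5% lower). GW3965 plus a second compound raised 3 and lowered 4, where 49.5% of all genes were called (25.2% higher and 24.4% lower). ICI plus 27HC raised 3 and lowered 5, where 53% of all genes were called (26.6% higher and 26.4% lower). GSK2033 plus 27HC raised 2 and lowered 5, where 50.4% of all genes were called (24.1% higher and 26.4% lower). The 8 comparisons share the Vehicle libraries, so they are not independent of each other. The 10 genes, and the related lists below, were chosen with earlier results of these data known. The shares of all genes beside their counts therefore give a scale and are no test of these sets. The median log2 fold change over all genes lay between -0.011 and 0.0091 in every comparison.

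**Figure D1:**
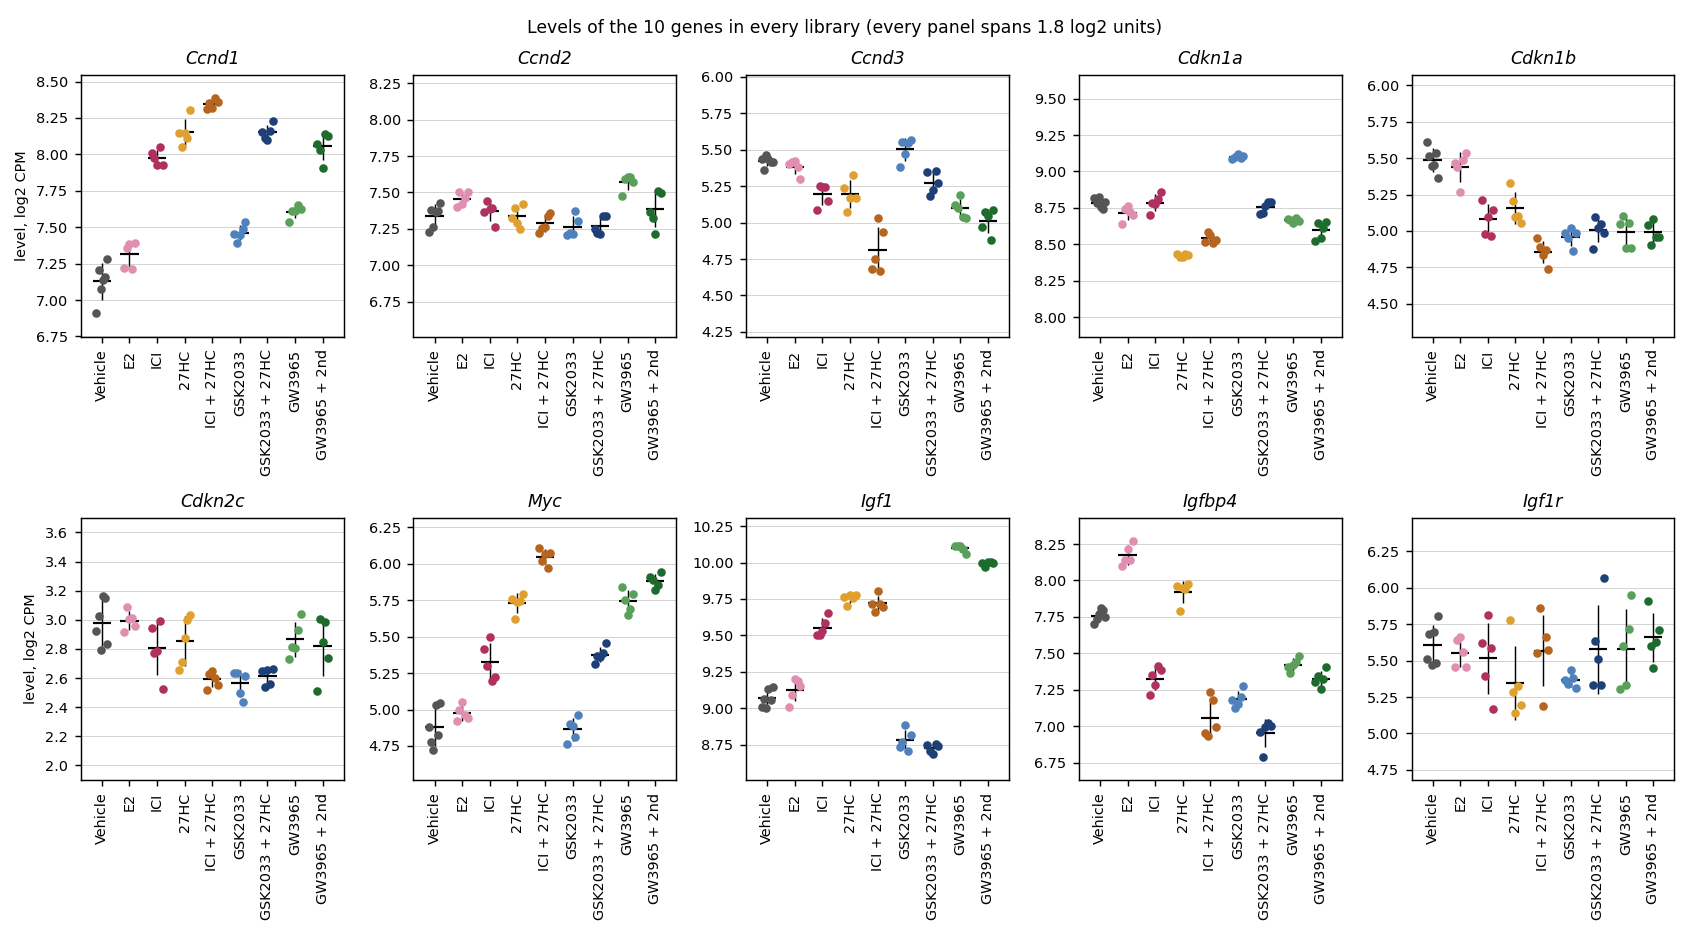
Level of each of the 10 genes in every library (vertical axis, log2 CPM; all panels span the same number of log2 units) by treatment group (horizontal axis), with a point per library, a horizontal line at the group mean and a vertical line of 1 SD on each side. The group means of Igf1, Igfbp4, Ccnd1 and Myc span 1.37, 1.22, 1.22 and 1.18, while those of Igf1r and Ccnd2 span 0.31 each.

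Ccnd1, which encodes cyclin D1, was higher than in Vehicle in all 8 treated groups. Its log2 CPM in Vehicle was 6.91 at the lowest, 7.15 at the median and 7.28 at the highest. In 27HC the 5 libraries were at 8.15, 8.05, 8.14, 8.12 and 8.30, and in ICI plus 27HC at 8.31, 8.35, 8.32, 8.39 and 8.36. None of these 10 libraries came within the Vehicle range, and the ICI plus 27HC libraries all lay above those of 27HC. The mean CPM was 140 in Vehicle, 285 in 27HC and 325 in ICI plus 27HC. The log2 fold change against Vehicle was 1.02 ± 0.045 (SE) for 27HC (adjusted p = 1.71e-23) and 1.21 ± 0.045 (SE) for ICI plus 27HC (adjusted p = 1.17e-26).

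ICI alone raised Ccnd1 by 0.85 ± 0.045 (SE), with libraries at 8.01, 7.98, 7.92, 8.05 and 7.92, all above Vehicle. GW3965, the LXR agonist, raised it less, by 0.48 ± 0.045 (SE), and GSK2033, the LXR antagonist, by 0.33 ± 0.046 (SE). Agonist and antagonist of LXR therefore moved Ccnd1 the same way, with no overlap between the GW3965 libraries (7.54 to 7.65) and the GSK2033 libraries (7.39 to 7.53). The rise under E2 was 0.18 ± 0.046 (SE) (adjusted p = 0.00859), its libraries at 7.22 to 7.39 overlapped those of Vehicle, and the call was lost when only these groups were fitted (adjusted p = 0.11). GSK2033 plus 27HC raised Ccnd1 by 1.02 and GW3965 plus a second compound by 0.93. In the order of the 9 groups, ICI plus 27HC stood clear at the top; 27HC, GSK2033 plus 27HC, GW3965 plus a second compound and ICI overlapped each with the next; GW3965 and then GSK2033 stood clear of their neighbours; and E2 and Vehicle, at the bottom, overlapped.

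Ccnd2 and Ccnd3, the other D-type cyclin genes, did not share this pattern. Ccnd2 passed the test against Vehicle under GW3965, where the libraries were at 7.47, 7.59, 7.61, 7.61 and 7.57 and Vehicle at 7.23 at the lowest, 7.37 at the median and 7.43 at the highest. No GW3965 library lay within the Vehicle range, and the log2 fold change was 0.23 ± 0.043 (SE) (adjusted p = 1.52e-05). Under 27HC the Ccnd2 difference was -0.0055 with a 95% interval of -0.093 to 0.082. Under E2 it was 0.12 with an interval of 0.030 to 0.20, and it was not called in the fit without a replicate block (adjusted p = 0.126). Every pair of neighbours among the 9 groups overlapped for Ccnd2.

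Ccnd3 fell in 6 of the 8 treated groups, most in ICI plus 27HC. Its log2 CPM in Vehicle was 5.36 at the lowest, 5.42 at the median and 5.46 at the highest. In ICI plus 27HC the libraries were at 4.68, 4.75, 5.03, 4.67 and 4.93 and in GW3965 plus a second compound at 4.97, 5.08, 5.05, 4.88 and 5.08, all below every Vehicle library. The log2 fold changes were -0.60 ± 0.052 (SE) (adjusted p = 1.14e-13) and -0.41 ± 0.052 (SE) (adjusted p = 4.18e-09). The log2 fold change of Ccnd3 was -0.33 under GW3965, -0.23 under ICI and -0.22 under 27HC, all called. GSK2033 gave 0.083 and E2 -0.036, and neither passed the test. The fall under GSK2033 plus 27HC (-0.15, adjusted p = 0.0155) lost its call without GSK2033 plus 27HC replicate 2 (adjusted p = 0.0923) or replicate 3 (0.0681). GSK2033 was the highest and ICI plus 27HC the lowest of the 9 groups, and each group overlapped the next in that order.

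Around the D cyclins, a list of 25 other genes of the G1 machinery (CDKs, E-type cyclins, retinoblastoma family, E2F factors and their regulators) had 11 higher and 1 lower in 27HC, with a median log2 fold change of 0.20 against -0.0022 for all genes. These are 44% higher and 4% lower, beside 20.3% and 20% of all genes. Cdk6, a kinase partner of the D cyclins, rose by 1.0 ± 0.077 (SE) in 27HC (adjusted p = 8.27e-15), by 0.94 in GW3965 and by 1.16 in ICI plus 27HC. Cdk4, the other partner, rose by 0.23 in 27HC, 0.24 in GSK2033 and 0.40 in GSK2033 plus 27HC. The phosphatase gene Cdc25a rose by 0.31 and E2f3 by 0.24 in 27HC, and the 1 gene that fell was Rbl2, of the retinoblastoma family, at -0.19. GW3965 had 7 higher and 5 lower (28% and 20%, all genes 23.1% and 21.1%; median 0.062, all genes 0.0044). GSK2033 had 3 higher and 5 lower (12% and 20%, all genes 18.4% and 17.9%; median 0.071, all genes -0.0052). The shares in GW3965, and the share that fell in GSK2033, lay near those of all genes. ICI had 1 higher and 2 lower (4% and 8%, all genes 13.9% and 12.5%; median -0.027, all genes 0.0069). In ICI the 1 that rose was Cdk6 (0.65) and those that fell were Cdk2 (-0.19) and Rbl2 (-0.16). Without GSK2033 replicate 2 the 5 that fell in GSK2033 became 3, and without ICI replicate 1 the ICI counts became 2 higher and 1 lower.

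Cdkn1a, whose protein p21 binds cyclin-CDK complexes and which p53 and other factors induce, moved in opposite directions under 27HC and GSK2033. In Vehicle its log2 CPM was 8.74 at the lowest, 8.79 at the median and 8.82 at the highest. In 27HC it was 8.44, 8.41, 8.41, 8.43 and 8.43, and in GSK2033 9.09, 9.10, 9.12, 9.09 and 9.11. The 27HC libraries were below, and the GSK2033 libraries above, those of every other group. The log2 fold change against Vehicle was -0.36 ± 0.024 (SE) for 27HC (adjusted p = 5.32e-17) and 0.32 ± 0.024 (SE) for GSK2033 (adjusted p = 5.89e-15). GW3965 lowered Cdkn1a by less, with a log2 fold change of -0.12, GW3965 plus a second compound gave -0.19 and ICI plus 27HC -0.25, all called. E2 (-0.073, adjusted p = 0.0759), ICI (0.0010) and GSK2033 plus 27HC (-0.032) did not pass the test, and the E2 call was gained without Vehicle replicate 5 (adjusted p = 0.0482) or E2 replicate 3 (0.0422). Between the extremes, the other 7 groups overlapped each with the next.

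Of the windows shown for Cdkn1a, the upstream one holds the p53 decamers. A list of 22 other p53 targets did not move as 1 group: it had 5 higher and 10 lower in 27HC (median -0.061, all genes -0.0022), 9 higher and 6 lower in GSK2033 (median 0.033, all genes -0.0052) and 11 higher and 4 lower in GW3965 (median 0.095, all genes 0.0044). The share that rose was 22.7% in 27HC, 40.9% in GSK2033 and 50% in GW3965, beside 20.3%, 18.4% and 23.1% of all genes. The share that fell was 45.5%, 27.3% and 18.2%, beside 20%, 17.9% and 21.1%, so the rises in 27HC and the falls in GW3965 lay near the shares of all genes. In 27HC the kinase gene Plk2 rose by 1.02 ± 0.039 (SE) (adjusted p = 7.88e-26), while Trp53inp1 (-0.41), the antiproliferative gene Btg2 (-0.44) and the stress gene Sesn1 (-0.37) fell. In GSK2033 Gadd45a, a DNA damage response gene, rose by 1.01 ± 0.061 (SE) (adjusted p = 3.9e-18), Mdm2, the ubiquitin ligase of p53, rose by 0.30, and Sesn1 (-0.79) and Trp53inp1 (-0.32) fell.

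Cdkn1b, whose protein p27 holds cyclin-CDK complexes inactive in quiescent cells, was highest in Vehicle and fell in every treated group except E2. Its log2 CPM in Vehicle was 5.36 at the lowest, 5.48 at the median and 5.61 at the highest. It was 4.95, 4.89, 4.84, 4.87 and 4.74 in ICI plus 27HC and 4.99, 4.96, 5.02, 4.86 and 4.98 in GSK2033, all below every Vehicle library. The log2 fold changes were -0.63 ± 0.055 (SE) (adjusted p = 1.19e-13) and -0.53 ± 0.055 (SE) (adjusted p = 6.61e-11). GW3965 gave -0.49, GW3965 plus a second compound -0.50, GSK2033 plus 27HC -0.48, ICI -0.41 and 27HC -0.33, all called. E2 gave -0.048, with a 95% interval of -0.16 to 0.061, and was not called. Agonist and antagonist of LXR thus lowered Cdkn1b alike in direction, and their difference, 0.036, was not called (95% interval -0.082 to 0.15). Every neighbour in the order of the 9 groups overlapped.

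Cdkn2c, whose INK4 protein p18 binds CDK4 and CDK6, fell where GSK2033 was given and in ICI plus 27HC. In Vehicle its log2 CPM was 2.79 at the lowest, 2.97 at the median and 3.17 at the highest. In GSK2033 it was 2.64, 2.63, 2.5, 2.43 and 2.61, below every Vehicle library, and the log2 fold change was -0.43 ± 0.086 (SE) (adjusted p = 7.17e-05). ICI plus 27HC gave -0.41 and GSK2033 plus 27HC -0.38, both called. For 27HC alone the value was -0.13 with a 95% interval of -0.30 to 0.041, and it did not pass the test. With 117 to 231 counts per library Cdkn2c has the widest counting error of the 10 genes, and each group overlapped its neighbour. Calls against Vehicle gained by leaving out 1 library were ICI without ICI replicate 4 (adjusted p = 0.0488) and GW3965 plus a second compound without its replicate 2 (adjusted p = 0.0438).

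Of the 5 other CDK inhibitor genes tested, Cdkn1c, the gene of p57, rose in 7 of the 8 treated groups. Its mean CPM was 2.97 in Vehicle, 16.1 in GSK2033 plus 27HC and 24.6 in ICI plus 27HC. The log2 fold change was 3.05 ± 0.13 (SE) in ICI plus 27HC (adjusted p = 4.88e-24), 2.45 in GSK2033 plus 27HC, 1.19 in 27HC and 1.10 in ICI. Under E2 it was 0.35 and not called. Cdkn2a and Cdkn2b, neighbours in the genome that encode INK4 proteins, fell in 27HC (-0.51 and -0.33) and rose in GW3965 (0.22 and 0.44). Of the 3 that rose in GW3965, 1 was left called without Vehicle replicate 2 or 3, without GW3965 replicate 2 or 4, or when only these groups were fitted.

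FOXO factors, which PI3-kinase and AKT signalling keeps out of the nucleus, activate Cdkn1b and a list of 12 other targets tested here. The list had 3 higher and 6 lower in 27HC (median -0.10), 3 higher and 7 lower in GSK2033 (median -0.19) and 4 higher and 7 lower in ICI plus 27HC (median -0.31), against all-gene medians of -0.0022, -0.0052 and 0.0016. The share that fell was 50%, 58.3% and 58.3%, beside 20%, 17.9% and 26.4% of all genes, and the share that rose was 25%, 25% and 33.3%, beside 20.3%, 18.4% and 26.6%. Txnip, an inhibitor of glucose uptake, fell in each, with log2 fold changes of -1.17, -1.09 and -1.92. Bcl6, a transcriptional repressor, rose in 27HC (0.53), and the antioxidant gene Sod2 fell there (-0.57) and rose in GSK2033 (0.83).

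**Figure D2:**
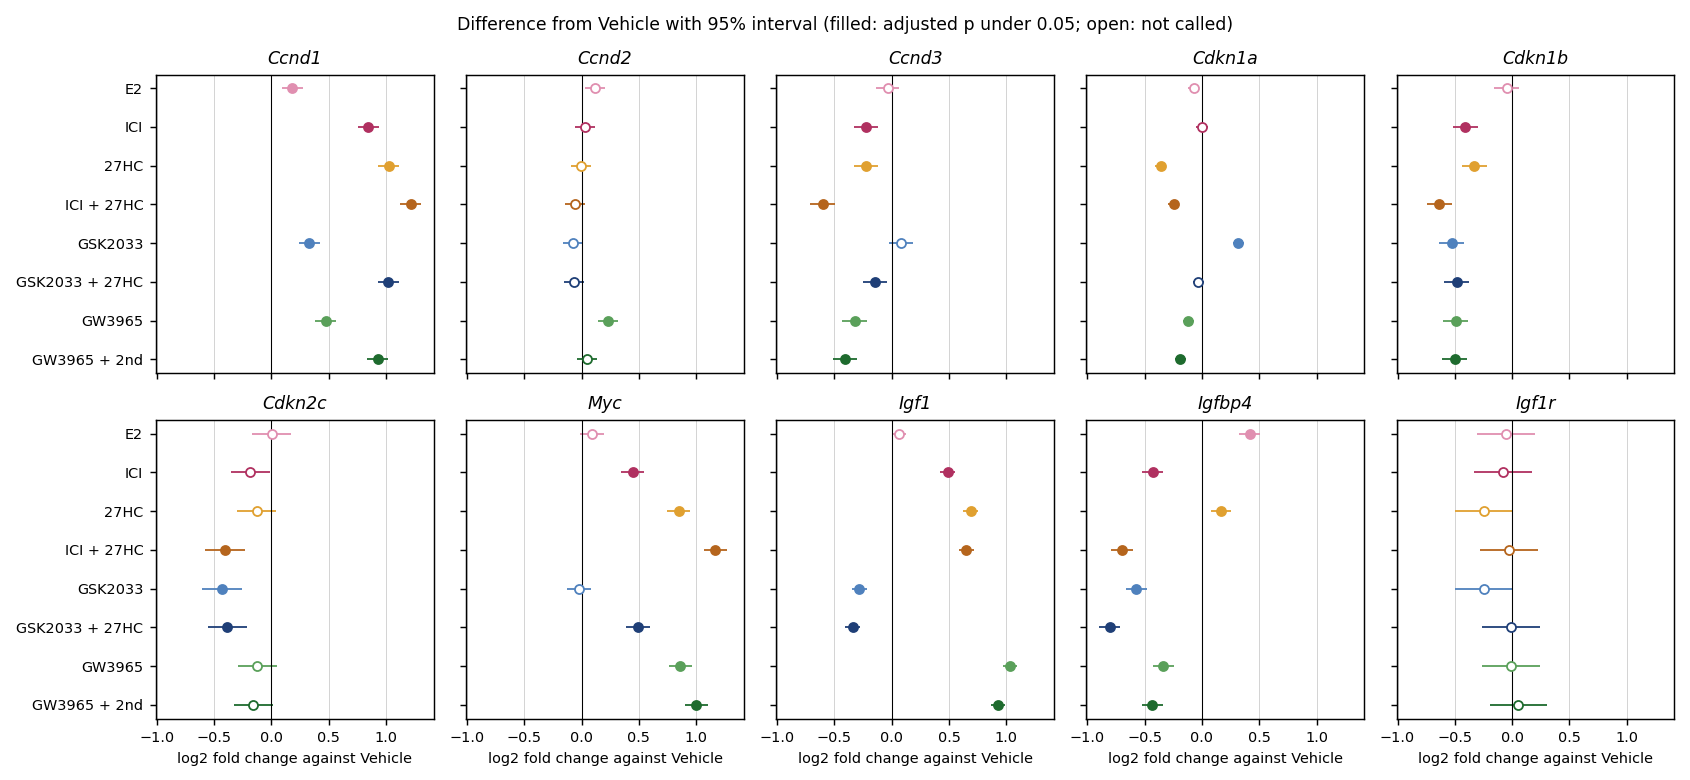
Log2 fold change against Vehicle (horizontal axis) in the 8 treated groups (rows), with a panel per gene, points for estimates and bars for 95% intervals; filled points have an adjusted p below 0.05 and open points do not. Ccnd1 lies to the right of 0 in all 8 groups, Cdkn1b lies to the left and is filled in all but E2, and Igfbp4 has filled points on both sides.

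Myc rose in 6 of the 8 treated groups and was not called in GSK2033 and E2. Its log2 CPM in Vehicle was 4.73 at the lowest, 4.85 at the median and 5.04 at the highest. In 27HC it was 5.76, 5.62, 5.74, 5.75 and 5.79, in GW3965 5.84, 5.75, 5.65, 5.69 and 5.79 and in ICI plus 27HC 6.11, 6.02, 6.07, 5.97 and 6.08. All 15 of these libraries lay above every Vehicle library, and those of ICI plus 27HC lay above every library of the other groups. The mean CPM was 29.5 in Vehicle, 53.1 in 27HC and 66.2 in ICI plus 27HC. The log2 fold changes were 0.85 ± 0.050 (SE) for 27HC (adjusted p = 6.29e-19), 0.86 ± 0.050 (SE) for GW3965 (adjusted p = 2.24e-19) and 1.17 ± 0.050 (SE) for ICI plus 27HC (adjusted p = 1.73e-24).

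GW3965 plus a second compound raised Myc by 1.0, GSK2033 plus 27HC by 0.49 and ICI by 0.45. GSK2033 alone gave -0.021 with a 95% interval of -0.13 to 0.085, and E2 0.088 with -0.017 to 0.19; neither passed the test. The difference between 27HC and GW3965, -0.013, was not called, and its 95% interval was -0.12 to 0.091. In the order of groups, the libraries of ICI plus 27HC stood clear, those of GW3965 plus a second compound, GW3965 and 27HC overlapped, those of GSK2033 plus 27HC and ICI overlapped, and those of E2, Vehicle and GSK2033 overlapped at the bottom.

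Most of a list of 25 MYC targets of growth (ribosome assembly, nucleotide and polyamine synthesis, translation) rose in the groups in which Myc rose, and also in GSK2033, in which it was not called. The list had 24 higher and 0 lower in 27HC (median 0.37, all genes -0.0022), 24 higher and 0 lower in GW3965 (median 0.33, all genes 0.0044), 24 higher and 0 lower in ICI plus 27HC (median 0.57, all genes 0.0016) and 14 higher and 2 lower in GSK2033 (median 0.18, all genes -0.0052). The share that rose was 96% in the first 3 of these and 56% in GSK2033, beside 20.3%, 23.1%, 26.6% and 18.4% of all genes. None of the 25 was lower in 27HC, GW3965 or ICI plus 27HC by edgeR, by DESeq2 or at an unadjusted p below 0.05. In 27HC the spermidine synthase gene Srm rose by 0.62 ± 0.045 (SE) (adjusted p = 8.18e-16), the ribosome assembly gene Ppan by 0.61, the translation factor gene Eif4a1 by 0.41 and the transferrin receptor gene Tfrc by 0.26. In GSK2033 the ornithine decarboxylase gene Odc1 rose by 0.49 ± 0.030 (SE) (adjusted p = 5.57e-18) and Srm by 0.52, while the RNA polymerase III subunit gene Polr3g (-0.36) and Tfrc (-0.077) fell. These 2 falls of 25 stand beside 17.9% of all genes, and 1 lost its call without Vehicle replicate 2, GSK2033 replicate 2 or GSK2033 replicate 4. E2 raised Tfrc (0.31) and Shmt1 (0.68) and lowered Mybbp1a (-0.20), with 1 of the rises lost without Vehicle replicate 1 or 2 or E2 replicate 2. These 2 rises and 1 fall of 25 stand beside 2.2% and 2.49% of all genes.

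The genes of MYC's dimer partners and of the MXD repressors that compete with it moved both ways. Of 11 tested, 27HC raised Mycl (0.52), a MYC paralog, and Mnt (0.11), and lowered Mxd1 (-0.43), Mxd4 (-0.19), Max (-0.17), the shared partner, and Mlxip (-0.14); without 27HC replicate 4 the 2 that rose became 1. GW3965 raised 2, Mycl (1.15) and Mnt (0.14), and lowered 4, Mxd3 (-1.35 ± 0.52 (SE), adjusted p = 0.0325), Mxd1 (-0.81), Mlxip (-0.20) and Max (-0.16); the 4 became 3 without some single libraries. These shares of 18.2% higher and 36.4% lower stand beside 23.1% and 21.1% of all genes, and those in 27HC, the same in both directions, beside 20.3% and 20%. GSK2033 lowered Mxi1 (-0.63) and Mxd4 (-0.56) and raised Max (0.21), Mlx (0.30) and Zbtb17 (0.29), 18.2% and 27.3% of the list beside 17.9% and 18.4% of all genes.

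Many genes of S phase and mitosis rose in 27HC, and many were lower in GW3965 and in ICI plus 27HC than in 27HC when these were compared directly. Of 25, 27HC had 17 higher and 0 lower (median 0.38, all genes -0.0022), GW3965 5 higher and 3 lower (median -0.031, all genes 0.0044), ICI 4 higher and 5 lower (median -0.085, all genes 0.0069) and ICI plus 27HC 7 higher and 7 lower (median -0.024, all genes 0.0016). The share that rose was 68% in 27HC, with 0 lower, beside 20.3% higher and 20% lower of all genes. It was 20% in GW3965, 16% in ICI and 28% in ICI plus 27HC, near the 23.1%, 13.9% and 26.6% of all genes. The 3, 5 and 7 of 25 that fell in these groups stand beside 21.1%, 12.5% and 26.4% of all genes. The falls in ICI plus 27HC lay near that share. The 7 that rose there were Pcna (1.18), Cdt1 (1.12), Mcm6 (0.53), Mcm5 (0.37), Ung (1.06), Mcm2 (0.31) and Mcm3 (0.16). The 7 that fell were Rrm1 (-0.30), Mki67 (-0.69), Ccnb1 (-0.59), Ccna2 (-0.48), Aurkb (-0.62), Cdk1 (-0.21) and Birc5 (-0.36). Aurka, Plk1, Bub1, Cdc20 and Ccnb2 were not called in ICI plus 27HC. The 0 lower in 27HC by edgeR was also 0 by DESeq2 and at an unadjusted p below 0.05. In 27HC the replication clamp gene Pcna rose by 0.85 ± 0.038 (SE) (adjusted p = 2.27e-23), the helicase genes Mcm5 and Mcm6 by 0.93 and 0.78, and the licensing gene Cdt1 by 0.81. Of the genes of mitosis, Bub1 (0.53), Birc5 (0.48), Ccna2 (0.38) and Cdk1 (0.29) rose in 27HC. Ccnb1 (-0.34), Ccnb2 (0.36), Aurka (0.10), Aurkb (0.30), Plk1 (0.10) and Cdc20 (-0.0090) were not called there. The proliferation marker Mki67 was not called in 27HC either (-0.36, adjusted p = 0.129). In GW3965 Pcna rose by 1.31, while Mki67 fell, with -0.96 (adjusted p = 6.69e-05). The direct comparison of 27HC with GW3965 had 17 higher and 1 lower (68% and 4%, all genes 12.8% and 12.5%; median 0.45, all genes -0.0045). That of ICI plus 27HC with 27HC had 2 higher and 15 lower (8% and 60%, all genes 16.8% and 17.4%; median -0.38, all genes 0.0068). GSK2033 had 2 higher and 6 lower (8% and 24%, all genes 18.4% and 17.9%); without GSK2033 replicate 2 or 4 the 6 became 3, and without Vehicle replicate 1 or GSK2033 replicate 1 or 3 the 2 became 1. The 7 that fell in ICI plus 27HC became 4 without its replicate 1, and without Vehicle replicate 1 the 27HC list had 1 lower.

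**Figure D3:**
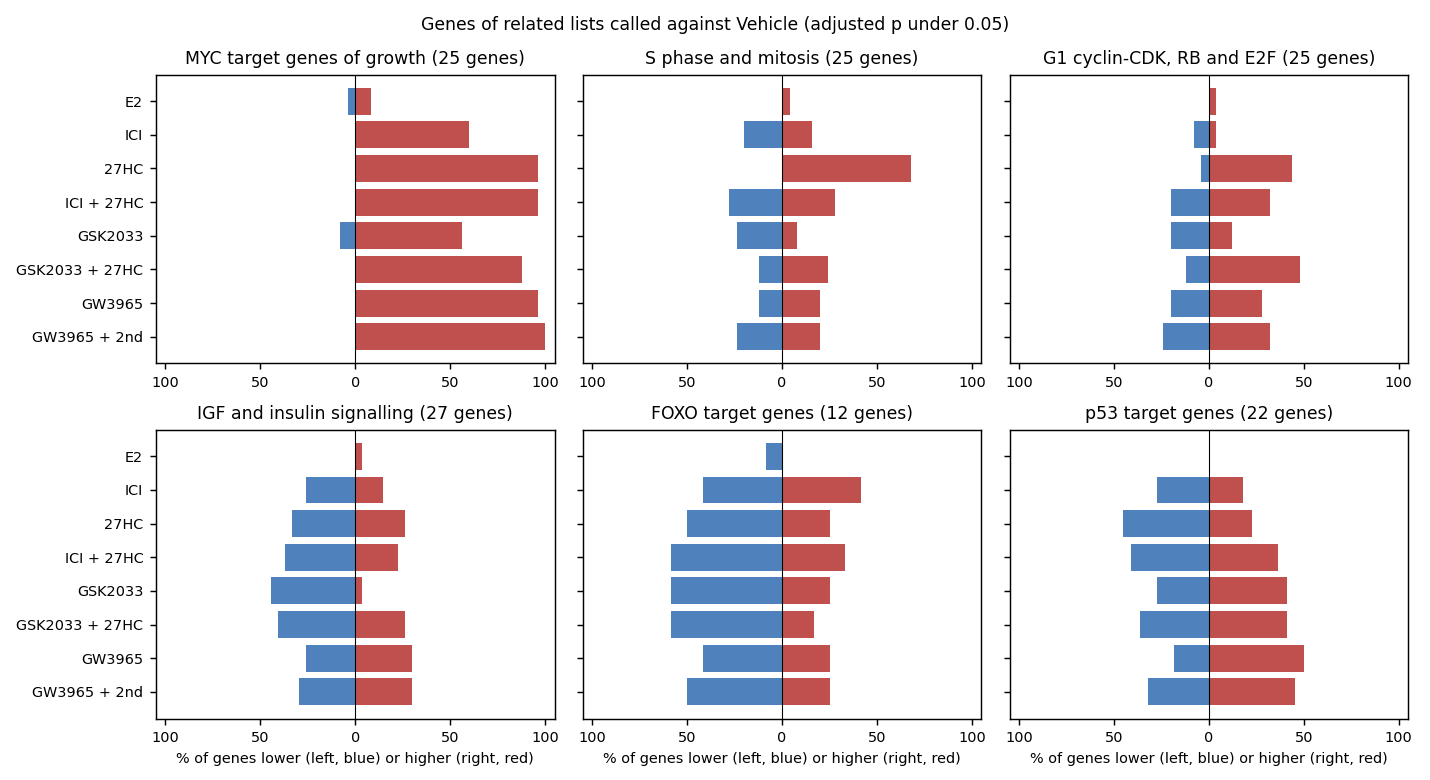
Share of the genes of 6 lists that were called lower (left, blue) or higher (right, red) against Vehicle (horizontal axis, % of the genes tested) in the 8 treated groups (rows). MYC targets of growth stand to the right, with 24 of 25 higher in 27HC, in GW3965 and in ICI plus 27HC, and the S phase and mitosis list has 17 of 25 higher in 27HC and 5 of 25 in GW3965.

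Igf1, the gene of the growth factor itself, had the widest span of group means of the 10 genes, 1.37, with both LXR agonists above Vehicle and the LXR antagonist below it. In Vehicle its log2 CPM was 9.0 at the lowest, 9.06 at the median and 9.14 at the highest. In GW3965 it was 10.11, 10.12, 10.12, 10.10 and 10.06, in 27HC 9.76, 9.70, 9.78, 9.75 and 9.78 and in GSK2033 8.73, 8.77, 8.89, 8.71 and 8.82. The GW3965 libraries lay above those of every other group, the 27HC libraries above every Vehicle library and the GSK2033 libraries below every Vehicle library. The mean CPM was 537 in Vehicle, 1098 in GW3965, 864 in 27HC and 441 in GSK2033. The log2 fold changes were 1.03 ± 0.031 (SE) (adjusted p = 5.5e-30), 0.69 ± 0.031 (SE) (adjusted p = 5.25e-23) and -0.28 ± 0.032 (SE) (adjusted p = 4.79e-10).

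GW3965 plus a second compound raised Igf1 by 0.93, ICI plus 27HC by 0.65 and ICI alone by 0.49. GSK2033 plus 27HC lowered it (log2 fold change -0.34), to 8.75, 8.71, 8.69, 8.75 and 8.74, libraries that overlapped those of GSK2033. E2 gave 0.062, with a 95% interval of -0.0024 to 0.13, and was not called. In the order of the 9 groups only 27HC with ICI plus 27HC, E2 with Vehicle, and GSK2033 with GSK2033 plus 27HC overlapped as neighbours. The nuclear receptor hexamer and the match to the AP-1 pattern in the Igf1 window printed above are common motifs. No start of the gene other than this internal one was at hand.

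Igfbp4, the gene of a secreted protein that binds IGF1, rose under E2 and 27HC and fell in the other 6 treated groups. In Vehicle its log2 CPM was 7.70 at the lowest, 7.76 at the median and 7.81 at the highest. In E2 it was 8.10, 8.14, 8.22, 8.14 and 8.27 and in 27HC 7.96, 7.79, 7.95, 7.94 and 7.97, and in ICI it was 7.21, 7.35, 7.28, 7.41 and 7.38. All E2 libraries lay above, and all ICI libraries below, every Vehicle library, while the 27HC libraries overlapped those of Vehicle through replicate 2. The log2 fold changes were 0.42 ± 0.044 (SE) for E2 (adjusted p = 1.86e-09), 0.17 ± 0.044 (SE) for 27HC (adjusted p = 0.00221) and -0.43 ± 0.045 (SE) for ICI (adjusted p = 1.3e-10). GSK2033 plus 27HC gave the lowest level, 6.96, 6.79, 6.99, 7.02 and 7.0, a log2 fold change of -0.80 ± 0.046 (SE). ICI plus 27HC gave -0.70, GSK2033 -0.57, GW3965 plus a second compound -0.43 and GW3965 -0.34, all called.

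Igfbp4 was the 1 of the 10 genes that rose in 27HC and fell in GW3965, and their direct difference was 0.50 ± 0.047 (SE) (adjusted p = 3.53e-12). E2 against ICI gave 0.85 ± 0.047 (SE) (adjusted p = 2.72e-19). In the order of groups E2 stood clear at the top, 27HC overlapped Vehicle, and from GW3965 down each group overlapped the next. The summed stromal markers were below Vehicle both in 27HC, in which Igfbp4 rose, and in GW3965 (6162 to 6848 CPM), in which it fell, and their part in these levels was not tested. Of the motifs searched, the Igfbp4 window printed above holds only the TATA box.

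Igf1r, the gene of the IGF1 receptor, was called in none of the 19 comparisons by edgeR. It was in 1 by DESeq2 and in 1 at an unadjusted p below 0.05. In Vehicle its log2 CPM was 5.47 at the lowest, 5.60 at the median and 5.80 at the highest. In 27HC it was 5.78, 5.29, 5.14, 5.33 and 5.19, where replicate 1 was apart from the other 4, and in GSK2033 5.37, 5.34, 5.44, 5.38 and 5.31. Every group overlapped the next. The log2 fold change was -0.25 ± 0.13 (SE) in 27HC (95% interval -0.50 to 0.0060, adjusted p = 0.115) and -0.25 ± 0.13 (SE) in GSK2033 (95% interval -0.50 to 0.0079, adjusted p = 0.125). Without 27HC replicate 1 the 27HC value was -0.37 (adjusted p = 0.0164), and when only these groups were fitted the GSK2033 value was -0.25 (adjusted p = 0.00409).

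Of the 28 other genes listed for IGF and insulin signalling, 27 were tested. They had 7 higher and 9 lower in 27HC (median -0.088, all genes -0.0022), 8 higher and 7 lower in GW3965 (median 0.032, all genes 0.0044) and 1 higher and 12 lower in GSK2033 (median -0.11, all genes -0.0052). The share that rose was 25.9% in 27HC, 29.6% in GW3965 and 3.7% in GSK2033, beside 20.3%, 23.1% and 18.4% of all genes. The share that fell was 33.3%, 25.9% and 44.4%, beside 20%, 21.1% and 17.9%, so in GW3965 both shares lay near those of all genes. Pik3cb, the gene of a PI3-kinase catalytic subunit, rose by 1.11 ± 0.034 (SE) in 27HC (adjusted p = 1.33e-29), 1.40 in GW3965 and 1.59 in ICI plus 27HC. In 27HC the receptor gene Igf2r (0.55) and the adaptor gene Irs2 (0.47) rose, and Grb10 (-0.40), an adaptor that restrains the receptors, fell. GW3965 also raised Igf2r (0.66). It lowered Igfbp5 (-0.89), the gene of another IGF binding protein, which rose in 27HC (0.32). In GSK2033 the falls included Foxo3 (-0.41), Pik3r1 (-0.22) and Akt2 (-0.15), and the 1 rise was Rheb (0.10), which lost its call without Vehicle replicate 1, 3 or 6 or GSK2033 replicate 2 or 3.

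Growth of these macrophages in culture depends on CSF1 signalling. A wider list for macrophage growth held 16 genes, among them receptor genes of other colony-stimulating factors (Csf2ra, Csf2rb and Csf3r) and transcription factor genes. The list had 5 higher and 6 lower in 27HC (median -0.0054) and 3 higher and 7 lower in GSK2033 (median -0.10). The falls in 27HC included Csf3r (-1.01) and Csf2rb (-0.43), so the counts are not those of the CSF1 pathway alone. The share that rose was 31.2% and 18.8%, beside 20.3% and 18.4% of all genes, and the share that fell 37.5% and 43.8%, beside 20% and 17.9%. The receptor gene Csf1r fell, with -0.36 in 27HC, -0.35 in GSK2033 and -0.90 in ICI plus 27HC. Csf1r is also among the macrophage markers whose summed level is given above.

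Treatments were also compared with each other. GW3965 against GSK2033, agonist against antagonist of LXR, gave 6 of the 10 genes higher and 2 lower, where 46.5% of all genes were called (23.8% higher and 22.6% lower). The log2 differences were 1.32 ± 0.033 (SE) for Igf1 (adjusted p = 3.48e-33), 0.88 ± 0.053 (SE) for Myc (adjusted p = 5.4e-19), 0.31 for Ccnd2, 0.31 for Cdkn2c, 0.24 for Igfbp4 and 0.14 for Ccnd1. Those of Cdkn1a (-0.44) and Ccnd3 (-0.41) were negative. Ccnd1 had the smallest of the called differences, and its call was lost without GSK2033 replicate 2 (adjusted p = 0.0518).

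27HC against GW3965, both LXR agonists, gave 3 higher and 3 lower, where 25.3% of all genes were called (12.8% higher and 12.5% lower). Ccnd1 (0.55 ± 0.047 (SE), adjusted p = 3.09e-13), Igfbp4 (0.50) and Cdkn1b (0.16) were higher in 27HC. Igf1 (-0.34 ± 0.033 (SE), adjusted p = 6.14e-12), Cdkn1a (-0.24) and Ccnd2 (-0.24) were lower. The Cdkn1b call was lost without 27HC replicate 1 or 2 or GW3965 replicate 3 or 5, at adjusted p of 0.0588 to 0.152. The labels give no doses, so the 2 agonists are not matched for strength as far as the sources used here tell.

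27HC against E2, both ligands of the estrogen receptor, gave 3 higher and 5 lower, where 37.3% of all genes were called (18.6% higher and 18.7% lower). Ccnd1 (0.84), Myc (0.76) and Igf1 (0.63) were higher in 27HC, and Cdkn1a (-0.29), Cdkn1b (-0.28), Igfbp4 (-0.25), Ccnd3 (-0.19) and Ccnd2 (-0.12) were lower. For Ccnd2 the call was lost without 27HC replicate 1, 3 or 4 or E2 replicate 2 or 5, at adjusted p of 0.0599 to 0.0883. E2 against ICI gave 3 higher and 4 lower, where 27.5% of all genes were called (13.1% higher and 14.4% lower): Igfbp4, Cdkn1b (0.36) and Ccnd3 (0.19) were higher in E2, and Ccnd1 (-0.66), Igf1 (-0.42), Myc (-0.36) and Cdkn1a (-0.074) were lower. The Cdkn1a call was lost without E2 replicate 1 or 5 or ICI replicate 4 or 5 (adjusted p 0.0627 to 0.147).

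Adding a second compound to GW3965 changed 5 of the 10 genes, where 17.5% of all genes were called (7.93% higher and 9.56% lower). Ccnd1 (0.45 ± 0.047 (SE), adjusted p = 3.15e-10) and Myc (0.14) were higher with it, and Ccnd2 (-0.19), Igf1 (-0.11) and Cdkn1a (-0.069) were lower. The Myc and Cdkn1a calls depended on single libraries. Adjusted p was 0.0488 for Myc, and the call was lost without GW3965 replicate 2, 3 or 4 or without replicate 1, 2, 4 or 5 of the combined group, at 0.0572 to 0.14. For Cdkn1a it was 0.0492, and the call was lost without any 1 of the 5 GW3965 replicates or without replicate 1, 3 or 4 of the combined group, at 0.0503 to 0.19.

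The response to 27HC was then measured under each antagonist. Under GSK2033, adding 27HC raised Ccnd1 by 0.69 ± 0.047 (SE) (adjusted p = 1.64e-16) and Myc by 0.51 ± 0.053 (SE) (adjusted p = 5.81e-11), and lowered Cdkn1a (-0.35), Ccnd3 (-0.23) and Igfbp4 (-0.23), so that 2 rose and 3 fell where 35.8% of all genes were called (17.1% higher and 18.8% lower). Igf1 did not pass the test there: its difference was -0.056, with a 95% interval of -0.12 to 0.011. Cdkn1b, at 0.046 with an interval of -0.071 to 0.16, was not called either. Cdkn1a fell with and without GSK2033 (interaction 0.014, 95% interval -0.057 to 0.085, not called), from different starting levels, and GSK2033 plus 27HC came out at 8.71, 8.72, 8.76, 8.79 and 8.79, overlapping Vehicle.

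Whether the 27HC response differed with GSK2033 was tested as an interaction, the log2 fold change under GSK2033 minus that without it. It was called for 5 of the 10 genes, 1 higher and 4 lower, where 19.6% of all genes were called (9.34% higher and 10.3% lower). The interaction was -0.74 ± 0.046 (SE) for Igf1 (adjusted p = 2.44e-17), -0.40 ± 0.065 (SE) for Igfbp4 (adjusted p = 6.73e-06), -0.34 for Ccnd1, -0.34 for Myc and 0.38 for Cdkn1b. Igf1 rose with 27HC alone and was not called under the antagonist, Igfbp4 rose alone and fell under it, and Ccnd1 and Myc rose in both settings. The mean log2 CPM of Ccnd1 was 7.13 in Vehicle and 7.46 in GSK2033, so its response under GSK2033 is measured from a higher level. Its mean was 8.15 both in 27HC and in GSK2033 plus 27HC. Igf1r, at 0.48 (adjusted p = 0.0538), was not called, but was by DESeq2 (adjusted p = 0.037), without 27HC replicate 1 (0.61, adjusted p = 0.00977) and without any 1 of Vehicle replicates 3 and 5 and GSK2033 plus 27HC replicates 1, 3 and 4 (adjusted p 0.0271 to 0.0492).

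Under ICI, adding 27HC raised Myc by 0.72 ± 0.051 (SE) (adjusted p = 3.36e-16), Ccnd1 by 0.37 ± 0.047 (SE) (adjusted p = 7.49e-09) and Igf1 by 0.17, and lowered Ccnd3 (-0.38), Igfbp4 (-0.27), Cdkn1a (-0.25), Cdkn1b (-0.23) and Cdkn2c (-0.22). These are 3 higher and 5 lower, where 40.4% of all genes were called (19.7% higher and 20.7% lower). The Cdkn2c call (adjusted p = 0.0466) was lost without any 1 of the libraries of these groups other than ICI replicate 5. The interaction with ICI was called for 4 of the 10 genes, 1 higher and 3 lower, where 17.4% of all genes were called (7.39% higher and 9.97% lower): -0.66 ± 0.065 (SE) for Ccnd1 (adjusted p = 6.52e-11), -0.52 ± 0.045 (SE) for Igf1 (adjusted p = 1.66e-12), -0.43 for Igfbp4 and 0.11 for Cdkn1a. That of Myc, -0.13, was not called (95% interval -0.27 to 0.018). The Cdkn1a interaction lost its call without ICI replicate 1 (adjusted p = 0.0545). ICI alone had raised Ccnd1 and Igf1, and the 27HC response under ICI is measured from those higher levels. Ccnd3, at -0.15 (adjusted p = 0.172), was called only without ICI plus 27HC replicate 3 (-0.20, adjusted p = 0.0401).

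**Figure D4:**
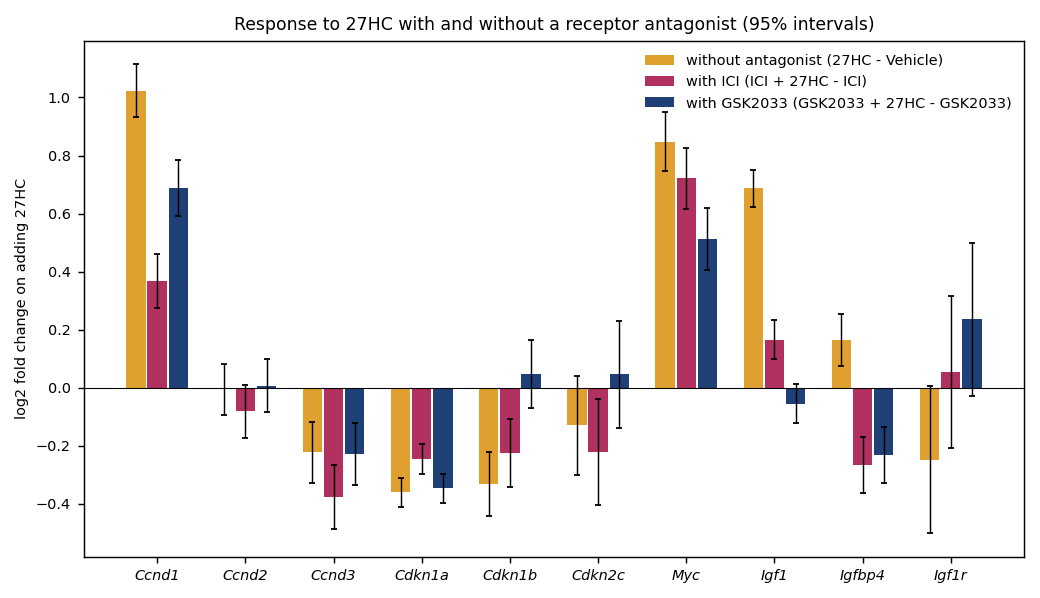
Log2 fold change on adding 27HC (vertical axis) for the 10 genes (horizontal axis) without an antagonist, with ICI and with GSK2033, as bars from 0 with 95% intervals. Myc rises in all 3 settings, Igf1 rises by 0.69 without an antagonist and 0.17 with ICI and stands at -0.056 with GSK2033, and the Igfbp4 bars change sign.

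Set against 27HC alone, GSK2033 plus 27HC had 1 of the 10 genes higher and 5 lower, where 42.8% of all genes were called (21.1% higher and 21.7% lower). Cdkn1a was higher (0.33), and Igf1 (-1.03 ± 0.033 (SE), adjusted p = 1.53e-28), Igfbp4 (-0.97), Myc (-0.36), Cdkn2c (-0.25) and Cdkn1b (-0.15) were lower. Ccnd1 was not called (-0.0033, 95% interval -0.10 to 0.091). The Cdkn2c call was lost without 27HC replicate 4 or 5 or GSK2033 plus 27HC replicate 2 or 4 (adjusted p 0.0553 to 0.0856), and the Cdkn1b call without 27HC replicate 1 or 2 or GSK2033 plus 27HC replicate 1, 3 or 5 (adjusted p 0.0619 to 0.156).

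ICI plus 27HC against 27HC alone had 3 higher and 4 lower, where 34.1% of all genes were called (16.8% higher and 17.4% lower). Myc (0.32 ± 0.051 (SE), adjusted p = 1.55e-06), Ccnd1 (0.19) and Cdkn1a (0.12) were higher, and Igfbp4 (-0.86 ± 0.047 (SE), adjusted p = 1.07e-19), Ccnd3 (-0.38), Cdkn1b (-0.30) and Cdkn2c (-0.28) were lower. Igf1 gave -0.036, with an interval of -0.10 to 0.031, and was not called. The Cdkn2c call was lost without 27HC replicate 4 or 5 (adjusted p = 0.0535 and 0.0543).

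Related lists also had called interactions. The S phase and mitosis list had 0 of 25 genes with a larger and 14 with a smaller 27HC response under ICI (median interaction -0.44, all genes -0.0035), and 0 and 6 under GSK2033 (median -0.17, all genes 0.0018). The smaller responses are 56% and 24% of the list, beside 9.97% and 10.3% of all genes. The 0 larger, beside 7.39% of all genes under ICI and 9.34% under GSK2033, held by DESeq2 and at an unadjusted p below 0.05 as well. Mcm5 had an interaction of -0.80 with ICI and -0.52 with GSK2033, and Pcna -0.56 and -0.84. The MYC targets of growth had 1 larger and 5 smaller under GSK2033 (4% and 20%, all genes 9.34% and 10.3%), among them Eif4e (-0.38) and Eif4a1 (-0.17). Under ICI they had 1 larger (Mybbp1a, 0.19) and 1 smaller (Tfrc, -0.24), each 4% of the list, beside 7.39% and 9.97% of all genes. The call of Mybbp1a was absent without Vehicle replicate 4, 27HC replicate 2 or 3, ICI replicate 3, 4 or 5, or ICI plus 27HC replicate 1 or 2, and without Vehicle replicate 5 or ICI replicate 1 the list had 2 larger. Cdk6 had an interaction of -0.58 with GSK2033 and -0.49 with ICI.

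As a description, patterns over the 9 group means of log2 CPM were compared by Pearson's r, which has no p here because the groups share compounds and the genes share libraries. Among pairs of the 10 genes, Ccnd3 and Myc ran opposite (r = -0.947, n = 9 group means), and the 5 pairs with the highest r were Cdkn2c with Igfbp4 (0.856), Cdkn1b with Igfbp4 (0.826), Cdkn1b with Cdkn2c (0.820), Ccnd1 with Myc (0.802) and Igf1 with Myc (0.796). Over the tested genes with a mean of at least 5 CPM and an SD of group means of at least 0.2, the 3 most like Ccnd1 were Spred2 (0.983), Fat3 (0.963) and Fam102a (0.946), and the 3 most like Myc were Hmga2 (0.992), Pik3cb (0.987) and Plau (0.986). For Igf1 they were Etv3 (0.992), Rasgef1b (0.987) and Inppl1 (0.987), and for Igfbp4 Mtss1l (0.963), Rcbtb2 (0.962) and Zdhhc14 (0.942). For Cdkn1a they were Casp1 (0.925), Heg1 (0.925) and Usb1 (0.921), for Cdkn1b Ssh2 (0.974), Fcgr3 (0.959) and Cyth1 (0.949) and for Ccnd3 H3f3a (0.979), Rab32 (0.969) and Dram1 (0.968). Ccnd2, Cdkn2c and Igf1r, whose group means span the least, came nearest to Pank3 (0.955), Man2b1 (0.968) and Flnc (0.847). Spred2, the gene nearest to Ccnd1, encodes an inhibitor of RAS and MAP kinase signalling, and Hmga2, nearest to Myc, a chromatin protein.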

How the data were processed

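Gene expression was measured by RNA sequencing in 46 libraries of bone marrow-derived macrophages. Per the labels, stranded TruSeq libraries of polyadenylated RNA were sequenced as single reads and demultiplexed with bcl2fastq 2.20, and the submitters' processing notes name kallisto 0.44.0 and GRCm38. The deposited values are estimated counts per gene; how the authors summarised transcripts to genes is not given in the sources used here. Within a tolerance of 0.02, 11.7% of nonzero values were whole numbers; all were rounded for the tests, which shifted library totals by at most 133 counts. Library totals were 19354093 to 30921038. GENCODE M21 gave symbols for 24279 of 24671 identifiers, and the other 392 held 0.455% of counts. No libraries were identical.

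In R 4.3.3, edgeR 4.0.16 kept 13838 genes with filterByExpr, scaled by TMM and fitted 1 mean per group over all libraries with 37 residual degrees of freedom. The quasi-likelihood test was applied to 19 contrasts, adjusted by Benjamini-Hochberg across the tested genes, and genes below 0.05 were called. The biological coefficient of variation was 7.55%. Levels are log2 CPM with a prior count of 2. The 10 genes were taken by name. From each list up to 4 genes with the smallest p in a comparison were named, or all behind a count of 5 or fewer. Further genes were named: of mitosis in 27HC, of S phase and mitosis in ICI plus 27HC, and Csf2rb, Csf3r and Igfbp5 in 27HC. For likeness the 3 genes with the highest r were named. The 10 genes and all lists were chosen with earlier results of these data known. On counts simulated for 27HC against Vehicle (13630 genes tested), the test called 70% of 50 genes set to 1.25-fold and 100% of 50 each at 1.5-fold, 2-fold and 4-fold, with 9 false calls among 13430 unchanged genes. The simulation changed few genes, none of low count, and its libraries shared no effects. In the data 40.3% of genes were called in that comparison, and error rates under so broad a response were not tested. Alternatives were DESeq2 1.42.0, RLE size factors, no filter, only the groups compared, a replicate block, mitochondrially encoded genes left out, unscaled levels and each library left out in turn.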

Additional observations from a re-analysis of the deposited data

Results flagged for a closer look

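Within groups of 5 or 6 libraries, 4 of 90 sets of levels had 1 library far from the others, and chance flags about 1 in 20 such sets. Ccnd2 in GW3965 was lowest in replicate 1 (7.47 log2 CPM, with the next library at 7.57), and Igf1 in GW3965 plus a second compound was lowest in replicate 2 (9.97). Igfbp4 was lowest in 27HC replicate 2 (7.79, the next at 7.94) and in GSK2033 plus 27HC replicate 2 (6.79, the next at 6.96).

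The response to 27HC differed with and without an antagonist, by the interaction test, in 9 cases. With GSK2033 the interactions were -0.34 for Ccnd1, 0.38 for Cdkn1b, -0.74 for Igf1, -0.40 for Igfbp4 and -0.34 for Myc. With ICI they were -0.66 for Ccnd1, 0.11 for Cdkn1a, -0.52 for Igf1 and -0.43 for Igfbp4.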

How the results depend on the processing

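Of 190 results (10 genes in 19 comparisons), 120 were called, and 107 of those kept their direction and their call in every alternative run. None of the 120 changed sign; 93 values called in neither setting did. DESeq2 kept 187 of 190 results on their side of the threshold, RLE size factors 189, no filter 185, only the groups compared 183, and leaving out mitochondrially encoded genes 187; leaving out 1 library kept 2133 of 2200. For GW3965 plus a second compound against GW3965, the 5 genes called became 3 with no filter and 3 to 4 with 1 library left out. For E2 against Vehicle the 2 called became 1 when only these groups were fitted. The number of all genes called moved at most 1.34-fold. Without scaling, 5 of 90 group levels moved by over 1 SD, at most by 0.052. Counts of listed genes, an alternative chosen after seeing the data, moved by over 1.5 times in 1 of 342 cases under RLE, 1 under DESeq2, 16 with no filter, 15 with only the groups compared, 12 with the block and 199 of 3960 with 1 library left out. Depth limits Cdkn2c most, with 117 to 231 counts per library.

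With the replicate number of the titles as a block, 189 of 190 results were the same, and Ccnd2 in E2 against Vehicle became called (0.14, adjusted p = 0.0223). The numbers were not treated as pairs in the main fit because the labels state no pairing. Of 180 pairs of libraries with the same number, 55 had a correlation of deviations over 0.1 (median 0.036, lowest -0.11). The median was -0.015 over the 760 pairs with different numbers, and 25 of 45 libraries correlated best with their own number. Libraries of the same number thus shared some of their deviation, and its source was not tested.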
